A study of Mus musculus with 7 samples.

Results

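Single-promoter regions are stretches of open chromatin that carried an ATAC-seq peak in all 7 libraries and that met the transcription start site (TSS) of exactly 1 protein-coding gene. They were chosen by the presence of peaks: broad peaks of the 7 libraries that overlapped by at least 1 bp were merged on the 19 autosomes, and a region was kept when every library had a peak in it and when it overlapped the TSS ± 1 kb of 1 mm10 RefSeq gene and of no other. Of 93201 merged regions, 52187 (56.0%) were called in all 7 libraries, and 10180 of these were single-promoter regions, 10.9% of all merged regions and 19.5% of those called in every library. They belonged to 10146 genes, because 34 genes held 2 such regions each. A further 1232 constant regions (2.36%) met the starts of several genes and 40775 (78.1%) met none.

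ATAC-seq marks DNA that the Tn5 transposase can reach and cut, and so maps where chromatin is open. Each library came from 5000 freshly sorted muscle stem cells (MuSCs), the resident stem cells of skeletal muscle, of 1 male C57BL/6 mouse aged 5 to 6 weeks. The question was whether accessibility differs after deletion of Nedd4L, an E3 ubiquitin ligase. There were 4 Nedd4L-cKO libraries (Nedd4L fl/fl, Pax7 cre/+) and 3 Nedd4L-WT libraries. In the cKO the Cre recombinase is driven from the Pax7 locus, so the floxed exon is removed in cells with a history of Pax7 expression while the rest of the gene can still be transcribed. Hindlimb cells were gated as ITGA7+ and Hoechst+ and as negative for CD31, CD45, CD11b and SCA1.

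A promoter is the DNA around a TSS at which general transcription factors and RNA polymerase II assemble. Nucleosomes are depleted there at many genes whether or not the gene is transcribed at a high rate, above all where the DNA is rich in CpG dinucleotides. Genes needed by every cell tend to have such CpG-rich, TATA-less promoters with binding sites for Ets, Nrf1, Yy1 or NF-Y factors, whereas genes of cell identity and rapid response often add open enhancers close to the start. Quiescent stem cells keep many promoters of the cell cycle and of rapid response open.

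Peaks in this report have 3 measures. The pileup is the mean coverage of extended tags over a peak. The fold enrichment is that pileup over a background estimated from the same library, either genome-wide or over the surrounding 10 kb, whichever is higher. A percentile ranks a region within its library over the 52187 constant regions, near 0 for the lowest and 100 for the highest. A region with a high pileup and a low fold therefore has many tags in the 10 kb around it. These 10 kb include the region's own tags, so such a region need not have open neighbours. Myc, for example, had 0 other constant regions within 10 kb and a background 13.9 times that of the genome. Values for a region are medians over the 7 libraries unless a library is named.

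Promoter sequences of 7 genes at the ends of these rankings show how unlike the letters of constantly open promoters can be. Each is the 250 bases before the RefSeq start on GRCm38 (mm10), 5′ to 3′ on the strand of the gene. Capitals mark a match, on either strand, to any of 12 motifs named with their letters further on. Pex7 and Cox16 were among the highest by fold, and Sp1 was the highest by pileup. Junb had the longest region, Flnc and Zfp36 were among the lowest by fold, and Calcr is a quiescence gene of MuSCs with middling ranks.
Pex7, chr10:19907675-19907924, minus strand: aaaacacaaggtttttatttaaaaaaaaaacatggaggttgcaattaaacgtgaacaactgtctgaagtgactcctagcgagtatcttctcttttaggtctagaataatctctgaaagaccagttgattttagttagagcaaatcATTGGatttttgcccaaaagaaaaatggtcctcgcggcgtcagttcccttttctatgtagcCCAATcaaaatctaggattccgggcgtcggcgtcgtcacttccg
Cox16, chr12:81485138-81485387, minus strand: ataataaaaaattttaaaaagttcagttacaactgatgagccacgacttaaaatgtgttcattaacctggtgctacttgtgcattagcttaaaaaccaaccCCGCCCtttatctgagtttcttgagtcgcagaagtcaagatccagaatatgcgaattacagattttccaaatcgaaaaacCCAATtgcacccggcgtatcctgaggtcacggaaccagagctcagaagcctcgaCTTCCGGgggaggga
Sp1, chr15:102406066-102406315, plus strand: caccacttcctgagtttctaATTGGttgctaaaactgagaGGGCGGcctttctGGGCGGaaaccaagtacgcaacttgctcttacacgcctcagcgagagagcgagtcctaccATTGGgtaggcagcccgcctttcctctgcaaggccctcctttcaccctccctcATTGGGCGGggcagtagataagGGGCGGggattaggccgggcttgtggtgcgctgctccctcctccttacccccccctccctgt
Junb, chr8:84978749-84978998, minus strand: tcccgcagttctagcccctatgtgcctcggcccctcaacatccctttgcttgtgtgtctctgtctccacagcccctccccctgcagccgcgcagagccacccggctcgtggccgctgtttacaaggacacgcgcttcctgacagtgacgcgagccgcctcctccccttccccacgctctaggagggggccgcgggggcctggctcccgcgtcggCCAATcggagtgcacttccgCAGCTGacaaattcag
Flnc, chr6:29432903-29433152, plus strand: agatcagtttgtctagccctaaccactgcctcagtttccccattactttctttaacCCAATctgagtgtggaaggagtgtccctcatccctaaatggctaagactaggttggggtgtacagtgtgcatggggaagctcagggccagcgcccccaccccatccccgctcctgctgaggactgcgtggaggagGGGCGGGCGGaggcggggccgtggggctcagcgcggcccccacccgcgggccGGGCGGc
Zfp36, chr7:28379229-28379478, minus strand: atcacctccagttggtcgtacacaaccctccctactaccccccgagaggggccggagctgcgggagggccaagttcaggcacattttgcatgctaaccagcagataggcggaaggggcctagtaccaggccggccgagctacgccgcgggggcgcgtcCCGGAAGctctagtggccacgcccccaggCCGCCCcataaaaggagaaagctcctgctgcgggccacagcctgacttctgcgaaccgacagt
Calcr, chr6:3764714-3764963, minus strand: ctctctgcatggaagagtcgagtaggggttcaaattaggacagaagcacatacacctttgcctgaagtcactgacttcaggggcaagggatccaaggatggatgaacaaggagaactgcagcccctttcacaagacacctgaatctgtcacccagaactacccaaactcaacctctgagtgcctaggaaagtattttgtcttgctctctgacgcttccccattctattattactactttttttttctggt
The promoters of Sp1 and Flnc hold several GC boxes. Pex7 holds a pair of CCAAT boxes, and Cox16 holds an Ets match close to its start. Calcr holds none of the motifs searched. GC content over 300 bases was 44.0% for Pex7 and 45.3% for Cox16, against 66.0% for Flnc and 65.3% for Junb.

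A single-promoter region was the most frequent state of autosomal protein-coding genes. A start could be placed for 20232 of 20665 genes (97.9%). Of these, 10146 (50.1%) had a single-promoter region, 2474 (12.2%) shared a constant region with a neighbouring start, 915 (4.52%) had a peak in some libraries but not all, and 6697 (33.1%) had none in any library. Olfactory receptors, a family silent outside the nose, had single-promoter regions at 6 of 938 genes, and keratins, proteins of epithelia, at 4 of 53. The floxed gene itself, Nedd4l, was among the genes with no peak at the outermost start in any library, and the nearest constant region lay 2317 bp away, while 23 constant regions fell inside the gene. Its relatives in the ligase family, Nedd4, Itch, Wwp1, Wwp2, Smurf1, Smurf2, Hecw1 and Hecw2 all had single-promoter regions, with pileup percentiles from 3.53 for Hecw1 to 91.2 for Wwp1.

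The label of the cells was checked against lineage markers. All 15 MuSC markers, among them Pax7, Calcr, Cdh15, Itga7 and Spry1, had single-promoter regions. None of 8 immune markers did, and all 8, which include Ptprc (CD45) and Itgam (CD11b), had no peak in any library. Of 8 endothelial markers, Tek, Kdr and Erg had a single-promoter region and the other 5, Pecam1 (CD31) among them, had no peak. Of 8 fibro-adipogenic markers, Dpp4 and Osr1 had one, Dcn and Lum had a peak in some libraries, and Pdgfra and Ly6a (SCA1) had none. Of 7 smooth muscle and pericyte markers 6 had one, Notch3 being also on the MuSC list, and of 4 tendon and Schwann markers Scx and Mkx had one. Whether these peaks came from MuSCs or from other cells in the sort was not tested.

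Single-promoter regions were longer and taller than constant regions away from promoters and had a higher local background. The median merged length was 1533.5 bp against 1219 bp, and the median peak length within a library was 1298 bp against 887 bp. The median pileup was 36.9 against 16.4 tags, and the median pileup percentile 79.8 against 41.001. The median fold was 4.60 against 3.86, a percentile of 69.7 against 44.5. The local background, which includes the region's own tags, was 3.91 times the genome background against 1.84 times. Neighbours were fewer, with a mean of 0.714 other constant regions within 10 kb against 1.02. None of these traits was particular to regions at a single start. The 1232 constant regions that met several starts went further in each, with a median merged length of 1606.5 bp and a background of 4.72. Their median percentiles were 89.3 by pileup and 78.7 by fold, and their mean number of neighbours was 0.611. These are descriptions without a test, since the calling of a peak in every library had already selected on height. Of the single-promoter regions, 60.9% were above the median of constant regions by both pileup and fold, and 23.4% were above it by pileup and below it by fold.

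Most of these regions were simple in shape. One broad peak per library made up 9665 of them (94.9%), and 7532 (74.0%) held 1 narrow peak, the stricter call inside a broad one, in every library. A pair or more of narrow peaks in every library was found in 459 (4.51%). The stretch covered by all 7 libraries had a median of 1089 bp, 73.1% of the region. The start itself lay inside the peak of every library in 8395 regions (82.5%) and inside that of none in 982, whose median distance to it was 387.5 bp. At regions spanning the start, openness reached further into the gene than away from it: the medians per library were 463 to 501 bp upstream and 753 to 825 bp downstream. The start used here is the outermost of the gene. With the starts of the RefSeq promoter table the reach was 513 to 551 bp upstream and 708 to 778 bp downstream. A noncoding gene also started within 1 kb of 1126 regions (11.1%).

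Ranks of a region were steady between libraries. The median SD over the 7 libraries was 2.94 points for the pileup percentile, 5.27 points for the fold percentile and 113 bp for peak length. Kept tags ran from 14.4 to 20.1 M (M, 1e6 tags) per library, out of 28.4 to 42.4 M in total. The share kept by the peak caller's filter ran from 41.5% in cKO replicate 1 to 54.7% in WT replicate 2. WT replicate 3 was the only library of sequencing lane 2, so a comparison without it is one within lane 1.

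**Figure D1:**
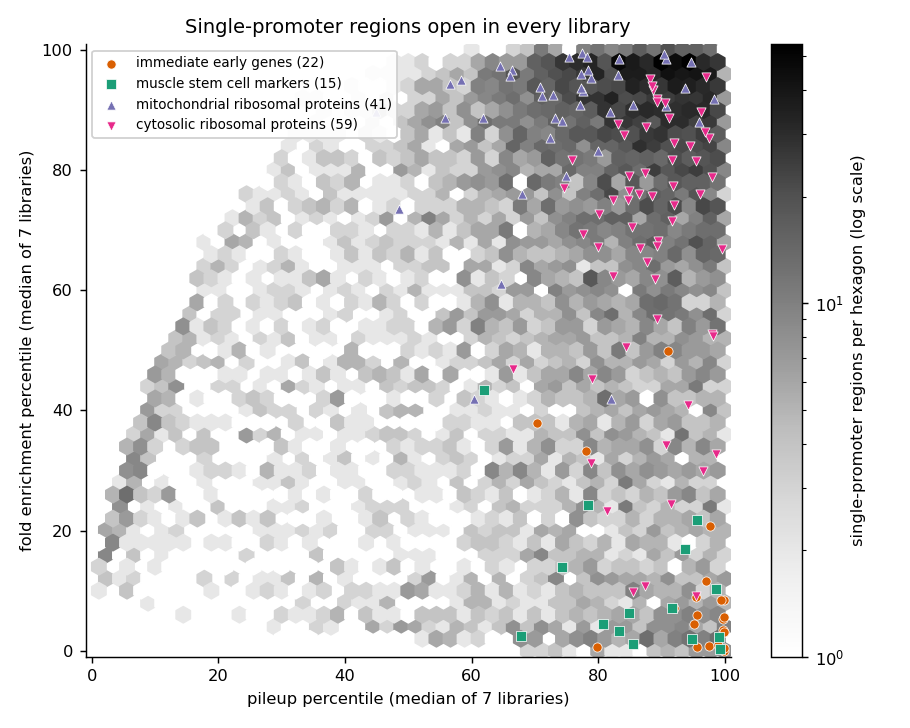
Each single-promoter region by its pileup percentile (x axis) and fold enrichment percentile (y axis), medians of 7 libraries, with grey hexagons for the count of regions on a log scale and coloured markers for 4 gene classes. Most regions sit at the upper right, immediate early genes and MuSC markers sit at the lower right, and mitochondrial ribosomal protein genes sit along the top.

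Length and fold did not rank the regions alike. Across regions, Spearman's rho was 0.34 between length and pileup, -0.32 between length and fold, 0.25 between pileup and fold, and 0.52 between length and local background. These describe 10180 regions of the same 7 libraries that share depth and background, and carry no test. By deciles of peak length over all constant regions, the median pileup percentile of single-promoter regions rose from 29.7 in decile 1 to 85.0 in decile 9. Their median fold percentile rose from 16.998 in decile 1 to 90.3 in decile 6, at a median length of 1046 bp, and fell to 35.7 in decile 10. Constant regions away from promoters had a flatter curve, 25.5 in decile 1, 60.0 in decile 7 and 31.7 in decile 10. The local background of single-promoter regions was 2.85 times the genome background in decile 6 and 5.70 times in decile 10. As the fold divides by that background, part of its fall over the long regions is built into the measure.

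**Figure D2:**
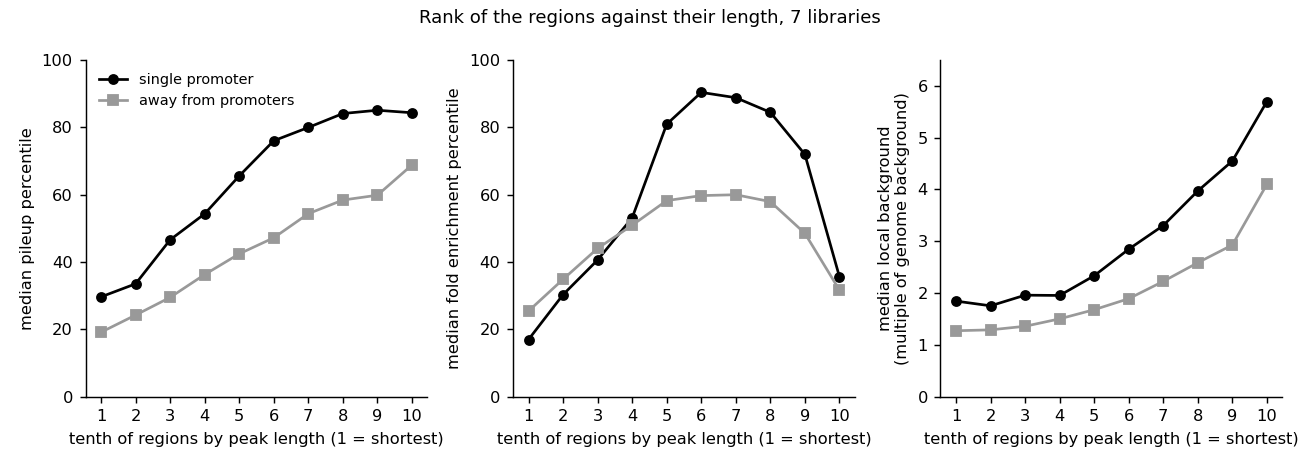
Median pileup percentile, median fold enrichment percentile and median local background (y axes) of constant regions in 10 equal groups by peak length (x axis), for single-promoter regions (black) and regions away from promoters (grey). The fold percentile of single-promoter regions peaks at 90.3 in group 6 and falls to 35.7 in group 10 while the background climbs to 5.70.

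The ends of each ranking were taken as the 10% of single-promoter regions with the highest and the lowest values, 1018 regions each. By length the ends were 402 to 1099 bp and 2344 to 5930 bp. By pileup percentile they were at most 37.2 and at least 96.1, and by fold percentile at most 15.8 and at least 95.6. Membership in an end held in each library taken alone for 358 of the shortest regions (35.2%) and 522 of the longest (51.3%). It held for 645 of the lowest (63.4%) and 615 of the highest (60.4%) by pileup, and for 554 of the lowest (54.4%) and 320 of the highest (31.4%) by fold. The longest regions and the lowest by fold shared 392 regions, 38.5% of each. None of the longest was among the highest by fold. The highest by pileup were split, with 117 (11.5%) among the lowest and 100 (9.82%) among the highest by fold.

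The longest single-promoter regions included several at transcription factor genes. Junb, a subunit of the AP-1 transcription factor, had the longest at 5930 bp. It was followed by Marcks, a substrate of protein kinase C, at 5197 bp, by the proto-oncogenes Mycn at 5067 bp and Myc at 4904 bp, and by the protocadherin gene Pcdh7 at 4836 bp. Myf5, a myogenic regulatory factor made by MuSCs, came next at 4726 bp, before Inppl1, a phosphoinositide phosphatase gene, at 4565 bp and Sema6a, a semaphorin, at 4473 bp. All 8 had fold percentiles between 0.464 for Junb and 3.78 for Inppl1. Narrow peaks were multiple in 62.9% of the longest regions and in 0.295% of the shortest.

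Merged length can exceed every single peak. The peak of Junb was 5896, 4863, 4588 and 3568 bp long in the 4 Nedd4L-cKO libraries and 3199, 4851 and 3719 bp in the 3 Nedd4L-WT libraries. These values overlapped between the genotypes, and the longest was not far from the merged 5930 bp. The peak of Myf5 was 2607, 3456, 2296 and 3206 bp in the cKO and 3218, 2557 and 2764 bp in the WT, all well below the merged 4726 bp. Its fold percentile was 3.25, 2.54, 3.79 and 2.90 in the cKO and 2.95, 3.54 and 3.83 in the WT. Myf5 was thus low by fold in every library while its pileup percentile was 81.98 or more in each.

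The shortest named regions had other constant regions close by. Pak4, a kinase gene, had the shortest of named genes at 420 bp, with another constant region 1142 bp away. Fkbpl followed at 421 bp, and Dot1l, which methylates lysine 79 of histone H3, at 447 bp. The region of Dot1l had a pileup percentile of 97.9 and a fold percentile of 1.58, with a background 14.1 times that of the genome and another constant region 915 bp away. Catsperz, a subunit of a sperm ion channel, Ntn5, a netrin, and Mcl1, a member of the BCL2 family, had regions of 448, 469 and 483 bp that spanned the outermost start in no library. Parp10 at 470 bp and Dnah5, a dynein of motile cilia, at 472 bp completed the 8. Each of the 8 had at least 1 other constant region within 10 kb.

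The tallest single-promoter regions included genes of general transcription and of the clock. Sp1, which encodes a zinc finger factor that binds GC boxes, and Sin3a, a scaffold of histone deacetylase complexes, both had a pileup percentile of 99.98. Cic, a transcriptional repressor, had 99.97. The circadian clock genes Per1 and Nr1d1, and Hjurp, a chaperone of the centromeric histone, were each at 99.96, and Bloc1s1, a subunit of a lysosome biogenesis complex, was at 99.95. Their folds differed widely: the fold percentile was 93.8 for Sp1 and 85.5 for Cic, 45.8 for Hjurp, and 0.895 for Nr1d1. The background was 8.92 times the genome background at Sp1 and 23.3 times at Nr1d1.

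Sp1 and Nr1d1 show the contrast library by library. The pileup at Sp1 was 100.7, 89.4, 100.5 and 104.3 tags in the cKO and 98.3, 93.8 and 103.3 in the WT, and its fold was 6.08, 5.81, 6.18 and 5.92 in the cKO and 5.83, 5.47 and 6.43 in the WT. The pileup at Nr1d1 was 95.4, 85.3, 92.2 and 105.8 in the cKO and 89.2, 94.4 and 87.3 in the WT, and its fold was 2.28, 2.24, 2.22 and 2.17 in the cKO and 2.259, 2.17 and 2.30 in the WT. Pileups of the 2 genes overlapped while their folds were apart in every library. The genotypes overlapped in both genes and both measures.

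The lowest single-promoter regions by pileup lay in neighbourhoods with no excess of tags. They were Aldh3b2, an aldehyde dehydrogenase (0.606), Tlr1, an innate immune receptor (0.739), Gne, of sialic acid synthesis (0.846), Sstr5, a somatostatin receptor (1.22), Pcdhb12, a clustered protocadherin (1.38), Scd4, a fatty acid desaturase (1.41), Phf11d (1.54) and Stmn4, a stathmin (1.69). Their background was that of the genome, between 0.9998 and 1.0011 times it. The pileup at Aldh3b2 was 6.72, 6.44, 7 and 7 tags in the cKO and 8.44, 7.58 and 6.48 in the WT, values that overlapped. Their fold percentiles ran from 8.09 for Aldh3b2 to 16.5 for Stmn4, so that all but Stmn4 were also among the lowest by fold. Of the lowest 1018 by pileup, 48.3% spanned the start in every library, against 89.8% of the highest.

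The 8 regions lowest by fold had pileup percentiles of 79.9 or more and close neighbours, whereas the 1018 lowest had a median pileup percentile of 77.4, below the 79.8 of all members. Rdh5, a retinol dehydrogenase, had the lowest fold percentile of all 52187 constant regions, 0.0019, at a pileup percentile of 98.6, with constant regions as close as 616 bp and 5 others within 10 kb, the region of Bloc1s1 among them. Both regions of Flnc, a filamin of the sarcomere, followed at 0.0172 and 0.0402. Next were Zfp36 (0.0441), which encodes a protein of messenger RNA decay, Id3 (0.0594), an inhibitor of myogenic and other bHLH factors, Nfic (0.0920), Cdk2ap1 (0.117) and Pdlim4 (0.134). The background at Zfp36 was 26.4 times the genome background. Its pileup was 91.4, 81.2, 82.98 and 92.3 tags in the cKO and 90.2, 95.4 and 79.0 in the WT, while its fold was 1.71, 1.79, 1.81 and 1.79 in the cKO and 1.85, 1.95 and 1.88 in the WT. All 3 WT folds at Zfp36 lay above the 4 cKO folds, a separation picked out after the values were seen. By fold rank, 158 of the 10180 single-promoter regions were separated in that direction, as were 1092 of all 52187 regions.

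The 8 highest by fold were short, isolated promoters, Cox16 being the one longer than the median of 1533.5 bp. Zfp317, a zinc finger gene, led with a fold percentile of 99.96, followed by Pex7, the receptor for import of certain peroxisomal enzymes (99.94), Cacng2 (99.94), Alpk1 (99.93), Emc2, of a membrane protein insertase (99.87), Cox16, an assembly factor of cytochrome c oxidase (99.87), Mfn1, which fuses mitochondria (99.87), and Med23, a Mediator subunit (99.86). Their regions were 893 to 1876 bp long, and 7 of the 8 had no other constant region within 10 kb, Alpk1 having 1. The nearest constant region to Zfp317 lay 761957 bp away. Its fold was 9.23, 8.50, 9.85 and 9.71 in the cKO and 8.78, 9.16 and 10.3 in the WT. Over the ends, the mean number of other constant regions within 10 kb was 0.297 for the highest and 1.56 for the lowest by fold, and the median background was 3.19 and 6.71 times the genome background.

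Cox16 differed between libraries more than its neighbours in rank. Its peak was 719, 671, 932 and 1864 bp long in the cKO and 1846, 954 and 878 bp in the WT. Its fold percentile was 99.87, 99.93, 99.93 and 89.6 in the cKO and 85.3, 98.2 and 99.93 in the WT. The longest peaks, of cKO replicate 4 and WT replicate 1, had the lowest folds, and the genotypes overlapped. At Pex7 the fold was 9.85, 7.38, 8.65 and 8.19 in the cKO and 8.92, 9.18 and 8.55 in the WT, again with overlap.

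Gene classes were spread unevenly over these ends. The classes overlap in part, and their counts are given without a test. Immediate early genes, transcribed within minutes of a stimulus, had single-promoter regions at 22 of 25 genes. Their median length was 2139.5 bp, their median pileup percentile 97.5 and their median fold percentile 5.47, with a background of 13.9 times the genome background. Of the 22 regions, 18 were among the lowest by fold, 13 among the highest by pileup and 10 among the longest. Fos had a fold percentile of 5.69 at a pileup percentile of 99.81, and Egr1 3.13 at 99.93. Ier2 had a fold percentile of 0.830 and Dusp1 of 1.00. The 4 outside the lowest by fold were Atf3 at 20.7, Fosl1 at 33.2, Nr4a1 at 37.9 and Ier5 at 49.9, of which Nr4a1 was also the lowest of the class by pileup at 70.4.

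MuSC markers lay close to the immediate early genes by fold. Over 15 regions the medians were 2000 bp, 85.5 by pileup and 6.22 by fold, and 11 were among the lowest by fold. Heyl, a Notch target, had a fold percentile of 0.312, Itga7, the integrin used in the sort, 1.13, Cxcr4, a chemokine receptor, 2.02, and Cdh15, M-cadherin, 2.263. Calcr was the highest at 43.4. At Pax7, the transcription factor that defines these cells, the pileup was 39.1, 34.5, 37.4 and 44.9 tags in the cKO and 39.5, 36.8 and 30.1 in the WT, and the fold percentile was 15.7, 7.30, 6.91 and 3.36 in the cKO and 3.66, 4.39 and 3.50 in the WT. The genotypes overlapped in both. Myod1, another myogenic regulatory factor, had percentiles of 95.7 by pileup and 21.8 by fold, and Myog, the factor of differentiation, 50.8 and 9.31.

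Other regulators of development were also long and low by fold. The medians by fold percentile were 18.5 for 23 Notch pathway regions, 17.9 for 69 homeobox regions, 17.7 for 29 forkhead regions, 22.8 for 14 Sox regions and 21.8 for 22 Klf and Sp regions. By pileup they differed: 89.2 for Notch, 60.7 for homeobox, 66.0 for forkhead, 74.98 for Sox and 91.5 for Klf and Sp. Of the homeobox regions 34 were among the lowest by fold and 14 among the lowest by pileup. Meis2 stood at 60.7 by pileup and 4.92 by fold. None of the regions of these 5 classes was among the highest by fold. Sarcomere genes, in use in myofibres, had single-promoter regions at 16 of 36 genes with medians of 60.4 by pileup and 33.3 by fold, and collagens and laminins at 36 of 53 genes with medians of 60.5 and 34.9.

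Housekeeping genes held the opposite place by fold, some classes more than others. The 41 regions of mitochondrial ribosomal proteins had a median fold percentile of 92.6 at a pileup percentile of 77.2 and a background of 2.87 times the genome background, and 13 were among the highest by fold and none among the lowest. Medians by fold were 91.9 for Mediator and RNA polymerase II, 88.5 for proteasome subunits, 87.9 for the respiratory chain and 87.4 for aminoacyl-tRNA synthetases. They were lower for chaperonins and heat shock proteins (80.5), translation initiation factors (78.6) and splicing factors (76.9). The pileup medians of these classes were 91.7, 89.6 and 86.3. Cytosolic ribosomal proteins differed from the mitochondrial ones: 59 regions had a median pileup percentile of 89.0, a median fold percentile of 75.04 and a background of 5.09, with none among the highest by fold. Mrpl15 stood at 96.1 by fold, Med7 at 96.8, Ndufs5 at 93.9 and Rpl22 at 91.8.

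Zinc finger genes named Zfp were the largest class, with 275 regions at 273 of 388 genes. Most encode C2H2 proteins, many of which silence transposons, while Zfp36 is of another type. Their median length was 1422 bp and their median percentiles 79.7 by pileup and 89.96 by fold, and 69 regions were among the highest by fold against 18 among the lowest. Zfp846, Zfp882 and Zfp334, nearest to the class median by pileup, stood at 98.0, 97.9 and 98.1 by fold. Cell division genes, used by dividing cells, were open too: 23 of 30 genes had a single-promoter region, 6 shared one and 1 had no peak. Their medians were 80.9 by pileup and 86.6 by fold. Cdk1, the mitotic kinase, stood at 88.5 by pileup and 70.8 by fold, Birc5, survivin, at 87.4 and 88.8, and Mcm3, of the replicative helicase, at 80.9 and 98.8. Aurka shared its region with another start and was therefore not a member.

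**Figure D3:**
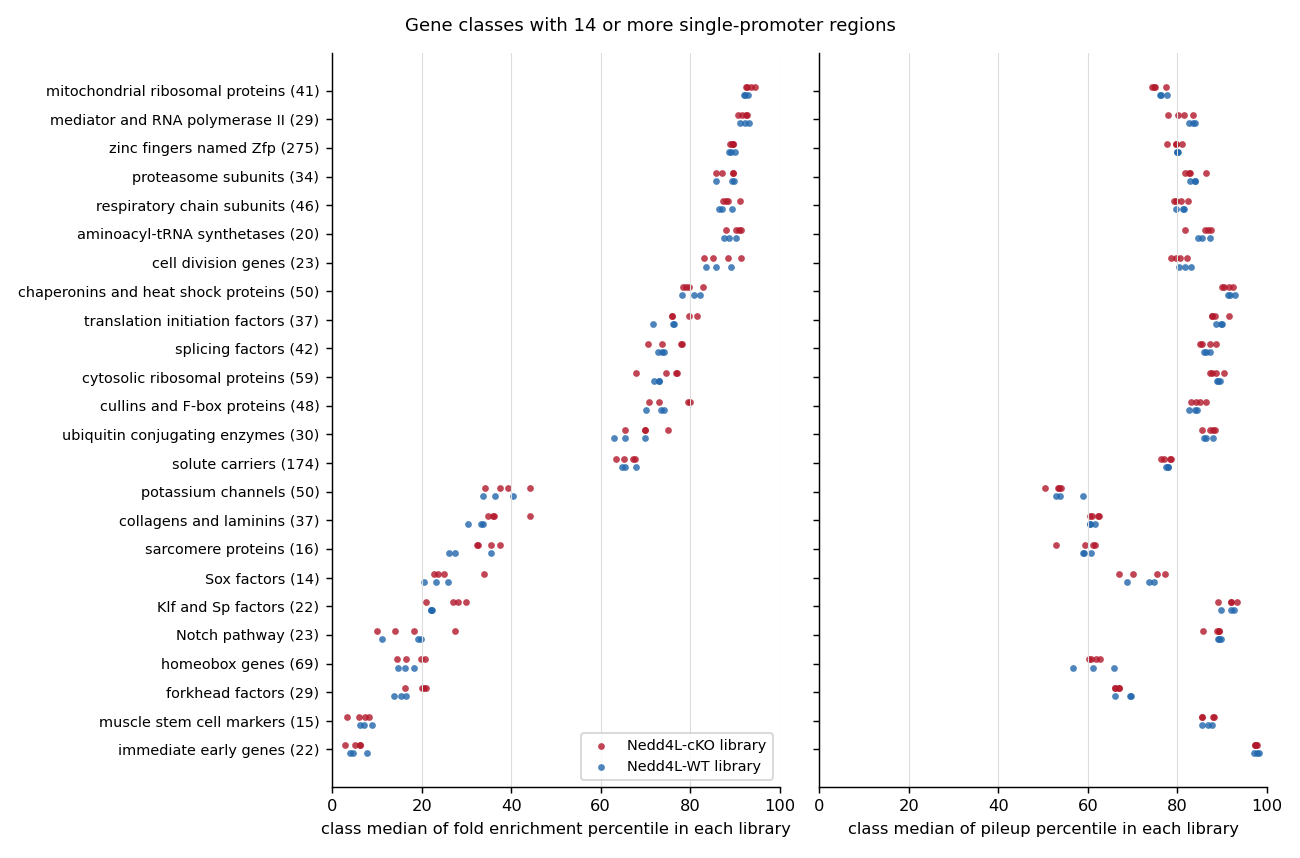
Class medians of the fold enrichment percentile (left x axis) and the pileup percentile (right x axis) in each of the 4 Nedd4L-cKO (red) and 3 Nedd4L-WT (blue) libraries, for 24 gene classes with their number of regions in brackets, ordered by fold. Classes run from 5.47 by fold for immediate early genes to 92.6 for mitochondrial ribosomal proteins, and the order by fold is not the order by pileup.

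Sequence around the starts was described for the highest by fold and by pileup, beside all promoters and the genes without a peak. The search used 300 bases, 250 before and 50 after a start of the RefSeq promoter table, which held 16457 autosomal protein-coding genes. It covered 8002 of the 10146 member genes (78.9%), which is too few to describe them as a whole, as it also was for the lowest by fold (73.8%), so neither is compared. It covered 81.5% of the highest by fold, 85.0% of the highest by pileup and 84.5% of the genes without a peak. The median GC content was 58.0% for the highest by fold, 64.3% for the highest by pileup, 56.7% for all promoters and 46.7% for the genes without a peak. The CpG ratio, observed over the number that base composition gives, was at least 0.6 in 77.7%, 85.2%, 49.8% and 9.39% of them.

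The 12 motifs were the TATA box TATAAA, the CCAAT box CCAAT, the GC box GGGCGG, the Ets site CCGGAAG, the Nrf1 site GCATGCGC, the CRE TGACGTCA, the AP-1 site TGACTCA, the E-boxes CACGTG and CAGCTG, the Yy1 site AAGATGGC, the E2f site TTTCGCGC and the element TCTCGCGA, each sought on both strands. Matches of different motifs could overlap, as a CCAAT box and a GC box do in Sp1. The Ets letters were found in 29.8% of the highest by fold, 15.4% of the highest by pileup, 12.3% of all promoters and 3.61% of genes without a peak. The Nrf1 letters were in 8.31%, 5.21%, 3.66% and 0.902% and the Yy1 letters in 5.42%, 4.98%, 3.21% and 1.503%. The GC box was most frequent at the highest by pileup, 77.9%, against 61.1% at the highest by fold, 47.3% of all promoters and 14.3% of genes without a peak. The CCAAT box was in 50.8% and 48.2% of the highest by pileup and by fold, 39.1% of all promoters and 40.9% of genes without a peak. TATAAA went the other way, with 7.47% and 7.18% of the highest by fold and by pileup, 13.5% of all promoters and 25.5% of genes without a peak.

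Classes with enough matched genes had motif shares of their own. The CCAAT letters were in 90% of 20 matched cell division promoters, and E2f letters, TTTCGCGC, in 15% of them, against 0.468% of all promoters. Ets letters were in 41.4% of 29 proteasome promoters, 30.6% of 36 mitochondrial ribosomal and 27.5% of 40 respiratory chain promoters, which also had Nrf1 letters in 20.0%. Classes with lower fold medians had similar Ets shares, 36.7% of 30 translation initiation and 33.3% of 36 splicing factor promoters. Of 228 matched Zfp promoters, 50% held CCAAT letters, 20.6% Ets letters and 43.4% a GC box. A match is a string of letters and was not tested for binding.

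**Figure D4:**
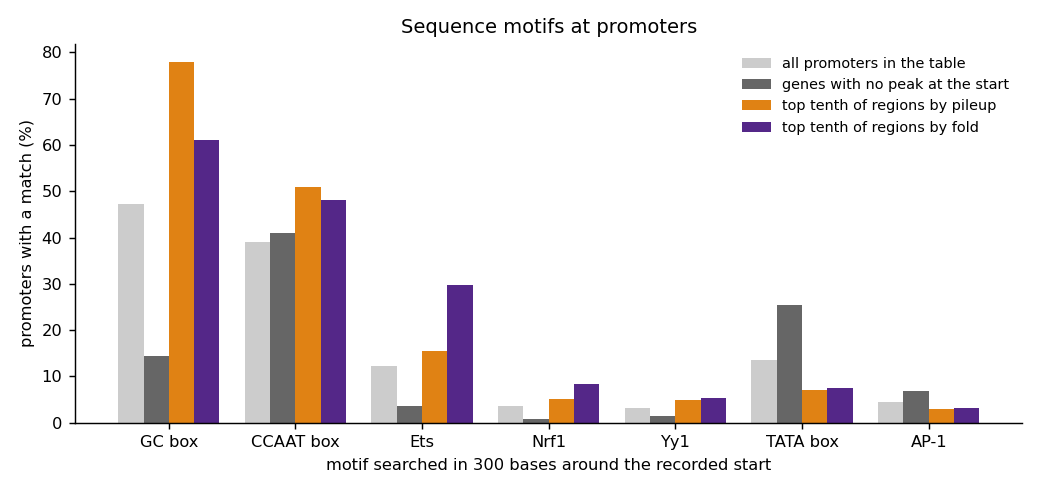
Share of promoters with at least 1 match in 300 bases (y axis, %) for 7 motifs (x axis), in all promoters of the table, in genes with no peak at the start, and in the top 10% of single-promoter regions by pileup and by fold. The Ets bar is highest for the top by fold (29.8%), the GC box bar for the top by pileup (77.9%) and the TATA box bar for genes with no peak (25.5%).

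Between the genotypes, none of 6 measures of the single-promoter regions as a set passed an exact permutation test. The median peak length was 1306 ± 39.5 bp in the cKO (SD, n = 4) and 1297 ± 44.2 bp in the WT (SD, n = 3), with single libraries at 1271, 1304, 1288 and 1362 bp and at 1317, 1327 and 1246 bp. The difference of 9.58 bp had p = 0.771 in a two-sided exact permutation test over 35 splits, whose smallest p is 0.0286. Its sign turned to -9.00 bp without cKO replicate 4 and to -15.75 bp without WT replicate 3.

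By rank, the median pileup percentile was 79.8 ± 0.917 in the cKO (SD, n = 4) and 79.9 ± 0.497 in the WT (SD, n = 3; exact permutation p = 0.886). The median fold percentile was 70.2 ± 1.73 and 69.0 ± 0.524 (exact permutation p = 0.314), with libraries at 70.6, 71.8, 70.7 and 67.8 in the cKO and 69.2, 68.5 and 69.4 in the WT. Narrow peaks per region numbered 1.128 ± 0.00233 and 1.133 ± 0.00356 (exact permutation p = 0.114). The reach of the peak was 481.8 ± 15.1 and 477.7 ± 13.3 bp upstream (exact permutation p = 0.743) and 791.0 ± 24.6 and 787.7 ± 30.04 bp downstream (exact permutation p = 0.943). Adjusted over these 6 measures by Benjamini-Hochberg, the lowest p was 0.686. In each measure the libraries of the genotypes overlapped. For the fold percentile they did so only through cKO replicate 4. Without it the difference was 1.99 (two-sided exact permutation p = 0.1, the smallest that 3 against 3 libraries allow). For narrow peaks they overlapped only through WT replicate 3, the library of lane 2. Within lane 1, the 4 cKO libraries lay below both WT libraries, with a difference of -0.0069 narrow peaks per region (two-sided exact permutation p = 0.0667, the smallest that 4 against 2 libraries allow).

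**Figure D5:**
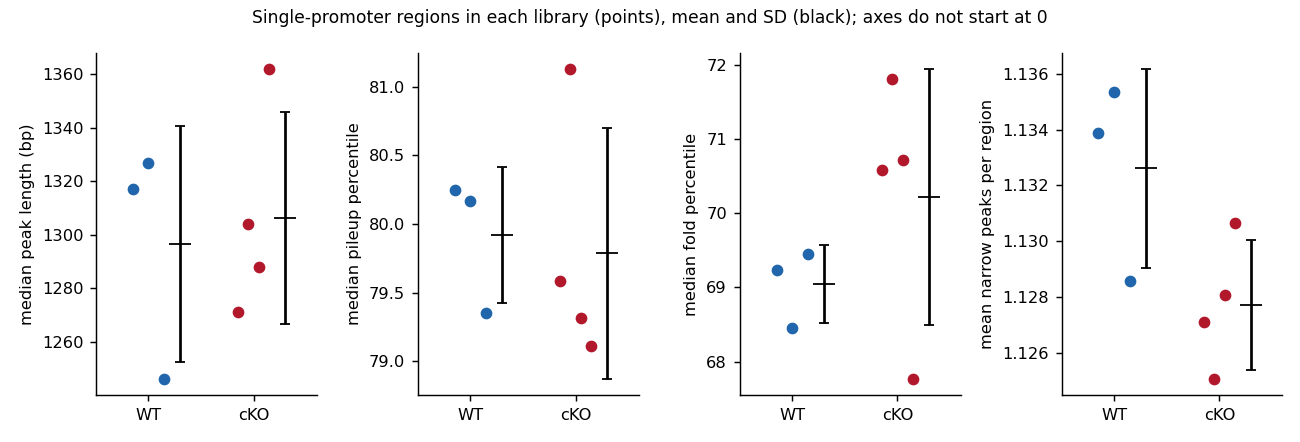
Median peak length, median pileup percentile, median fold percentile and mean number of narrow peaks of the single-promoter regions (y axes) in each of 3 Nedd4L-WT (blue) and 4 Nedd4L-cKO (red) libraries, with the mean and SD of each genotype in black and axes that do not start at 0. The points of the genotypes overlap in each panel, and peak length spans 1246 to 1362 bp.

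Region by region, no single-promoter region passed a limma test of its fold rank, pileup rank or length between the genotypes. The test ran on all 52187 constant regions with Benjamini-Hochberg adjustment. By fold rank 0 regions were called, 0.0% of those tested, and the lowest adjusted p was 1.00. At an unadjusted p under 0.05, 125 single-promoter regions (1.23%) were higher and 105 (1.03%) lower in the cKO, against 1.78% and 2.19% of all regions tested. By pileup rank 0 were called, 0.0%, and 46 (0.452%) were higher and 84 (0.825%) lower at an unadjusted p under 0.05, against 1.46% and 1.23%. By length 0 were called, 0.0%, with a lowest adjusted p of 0.415, and 112 (1.10%) were longer and 125 (1.23%) shorter, against 2.05% and 1.93%. Among single-promoter regions the median difference was 0.040 SD of ranks by fold and -0.0072 by pileup.

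The regions with the lowest unadjusted p are given by the rule for named genes and did not pass adjustment. By fold, Exoc6, of the exocyst, had a fold percentile of 49.1 ± 8.20 in the cKO (SD, n = 4) and 21.4 ± 7.34 in the WT (SD, n = 3; limma adjusted p = 1.00). Tor1b, a torsin, had 90.1 ± 0.604 and 98.2 ± 1.29 (limma adjusted p = 1.00). Rhobtb2, Pptc7 and Hnmt were likewise higher in the cKO, and 4930590J08Rik, Ovol2 and Cpz lower, with unadjusted p from 0.00241 to 0.00531. In each of these 8, picked for that contrast, the libraries of the genotypes did not overlap. Of the 10180 single-promoter regions, 385 were higher and 158 lower by fold rank in every cKO library than in every WT library. The same held for 1392 and 1092 of all 52187 regions.

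By pileup, Dlx6, a homeobox gene, had a pileup percentile of 5.05 ± 0.675 in the cKO and 21.2 ± 9.61 in the WT, the lowest unadjusted p of 0.000743 (limma adjusted p = 1.00). Col17a1, a collagen of hemidesmosomes, had 28.4 ± 2.77 and 13.1 ± 6.99. Phf11d, Sstr1 and Cyp7b1 were also higher in the cKO, and Gapdhs, Insyn2a and 4930590J08Rik lower, and the highest value among the 8 in any library was 32.1, of Dlx6 in WT replicate 1.

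By length, the peak at Epha8, an ephrin receptor gene, was 311, 241, 379 and 375 bp in the cKO and 841, 1071 and 826 bp in the WT, a log2 difference of -1.51 ± 0.18 (SE; limma adjusted p = 0.490). The peak at Gpx3, a secreted glutathione peroxidase, was 1628, 1611, 1525 and 1594 bp in the cKO and 893, 970 and 1045 bp in the WT, a log2 difference of 0.71 ± 0.10 (SE; limma adjusted p = 0.632). C1qtnf2, Irf5 and Plekhd1 were longer and Hapln1, Plaur, the urokinase receptor, and Hoxa4 shorter in the cKO, with limma adjusted p from 0.632 to 0.940. The genotypes did not overlap at these 8, which were picked for that contrast out of the 10180 single-promoter regions. Of those 10180, 178 were longer and 246 shorter in every cKO library than in every WT library, as were 1158 and 1318 of all 52187 regions.

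No region of any of the gene classes passed adjustment in limma. Of the 22 immediate early and 15 MuSC marker regions, 0 had an unadjusted p under 0.05 by fold, pileup or length in limma, and 0 passed adjustment. Of the 59 cytosolic ribosomal regions 1 had an unadjusted p under 0.05, by length, and 0 passed adjustment in limma. By fold, 2 of 23 Notch pathway, 2 of 37 collagen and laminin and 2 of 48 cullin and F-box regions were higher in the cKO at an unadjusted p under 0.05. In the other direction, 2 of 174 solute carrier and 2 of 275 Zfp regions were lower by fold, and 1 of each class was higher. By length, 5 of 275 Zfp regions were longer and 4 shorter. Over all 52187 regions tested, the limma shares were 1.78% higher and 2.19% lower by fold, and 2.05% longer and 1.93% shorter. The class median of the fold percentile was 5.13 ± 1.56 in the cKO (SD, n = 4) and 5.50 ± 2.01 in the WT (SD, n = 3) for immediate early genes, and 6.20 ± 2.10 and 7.37 ± 1.38 for MuSC markers. For Zfp genes it was 89.3 ± 0.376 and 89.3 ± 0.625.

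The requirement of a peak in every library set a soft border. The weakest members by their lowest -log10 q were Mpzl2 (1.03), Il18bp (1.09) and Aldh3b2 (1.09). Just outside were 218 regions at exactly 1 start that were called in 6 of 7 libraries, the strongest by that value being Kcnh6 (3.21), Cplx1 (3.09) and Ogdhl (3.04). The 218 had a median pileup of 9.37 and a median length of 982.5 bp, against 36.9 and 1533.5 bp for members. The missing library was cKO replicate 1, 2, 3 or 4 in 57, 58, 36 and 8 of them, and WT replicate 1, 2 or 3 in 17, 14 and 28. By kept tags cKO replicate 4 was the deepest, at 20.1 M, and WT replicate 3 the shallowest, at 14.4 M. Il6, a cytokine gene of activation, was a member with percentiles of 44.5 by pileup and 69.0 by fold, while Pou5f1, of pluripotent cells, had no peak.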

How the data were processed

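ATAC-seq peak lists of 7 libraries were used, 4 Nedd4L-cKO and 3 Nedd4L-WT, grouped by the genotype in their labels. Per the labels and the study's methods, the authors trimmed reads with Trimmomatic 0.39, aligned them to mm10 with BWA 0.7.17 and removed duplicates with Picard 2.26.3. The authors called broad peaks in each library alone with MACS2 2.2.7.1, without a control. Per the file headers, pileup is given as a coverage signal not scaled to depth. The fold column deposited beside it divides pileup by the local background. The p and q values were deposited as −log10 values, and the deposited score is 10 times the −log10 q. The gapped lists of the authors mark narrow peaks within broad ones.

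From these lists, peaks were merged as described above. Gene spans came from RefSeq on GRCm38.p6, with strands from the RefSeq promoter table (16457 genes) or GENCODE by symbol (3775 genes). A region took the highest pileup and fold of its peaks in a library, and the sum of their lengths. Ranks were turned into normal scores for limma 3.58.1 (R 4.3.3), and lengths were tested as log2 values centred on the library median. Library values were compared by two-sided exact permutation tests in Python 3.11.15 with scipy 1.17.1. All 7 libraries entered each fit without a covariate. The limma fit was also tested on simulated fold ranks, with known shifts in 200 of 52187 regions. It recovered 0% of them at a shift of 1 SD of ranks, 50% at 1.5 and 73% at 2, with 0, 3 and 6 false calls. A result of 0 regions called by fold can therefore miss shifts of 1 SD and a part of those of 1.5 or 2 SD. Pileup and length were not simulated. The noise was drawn independently for each region and library, so effects shared by the regions of a library were left out. Intervals for depth were not computed, because the lists hold no counts. The labels number the libraries within a genotype and do not tie a number to a mouse shared between genotypes, so p-values measure the spread between libraries.

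The members, the 33 gene classes and the tests were chosen with earlier results of these data known. Named genes are the 8 highest and 8 lowest members by each ranking, leaving out predicted genes, the 4 lowest unadjusted p in each direction, a list of 20 genes, up to 3 members nearest each class median by pileup, and the members and other regions nearest the border. Of the 20 genes, 2 are not autosomal, and Tbp shared its region with another start. A gene that this rule names is not reported here.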

Additional observations from a re-analysis of the deposited data

Results flagged for a closer look

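In each of 78 sets of 4 Nedd4L-cKO libraries, the highest or lowest library was compared with the others by Dixon's ratio, and 5 sets were picked out, near the 1 in 20 that chance gives. The Pax7 peak was 1528 bp in cKO replicate 1 and 1923 to 1961 bp in the others. The Sp1 peak was 1660 bp in cKO replicate 4 and 1183 to 1210 bp in the others, and 2 of the 3 WT libraries also had a peak of at least 1698 bp. Cox16 had a pileup percentile of 63.66 in cKO replicate 4, against 85.41 to 89.06 in the others, and a fold percentile of 89.63, against 99.87 to 99.93. The Hoxa4 peak was 856 bp in cKO replicate 2 and 673 to 697 bp in the others. The 3 Nedd4L-WT libraries are too few for this comparison. No cause was tested.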

How the results depend on the processing

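The number of single-promoter regions stayed within 1.5 times 10180 under all 15 alternatives tried for it, from 8247 (-log10 q of at least 5) to 11078 (a TSS window of 2.5 kb). It was 9629 with a window of 250 bp, 9894 with broad peaks that hold a narrow peak, and 10182 to 10239 when 1 library was left out. Added after the data were seen were 10149 regions with at least 1 base covered by every library and 9287 by the starts of the RefSeq promoter table.

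With a library left out or with the replicate block, the permutation test of the genotype differences per library could not reach 0.05, the smallest possible p being 0.0667, 0.1 and 0.25 without a WT library, without a cKO library and with the block, so these say nothing about stability. Under the alternatives with all 7 libraries, the exact permutation p was 0.0571 or more. The 0.0571 was for the median fold percentile ranked among all autosomal regions called in a library, a difference of 1.12. With ranks over the constant regions, the difference was 1.17 (exact permutation p = 0.314). In all, 13 differences changed sign. Leaving out 1 library gave -15.75 to 24.75 bp for peak length, -0.583 to 0.0896 for the pileup percentile, -3.25 to 9.75 bp for the upstream reach and -14.0 to 12.5 bp for the downstream reach. The fold percentile kept its sign at 0.644 to 1.99, and narrow peaks at -0.0069 to -0.00351. Limma called 0 regions by fold and pileup under all alternatives run, with 936 to 2980 and 538 to 2483 regions at an unadjusted p under 0.05. By length it called 3 regions at a -log10 q of at least 5, none of them a single-promoter region, and 0 otherwise; the cause was not tested.

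The replicate numbers shared by the genotypes did not pair the libraries: for fold the correlations of same-numbered libraries were -0.123, 0.0334 and -0.121, and no library correlated best with its own number. With the replicate block the differences were -9.00 bp for peak length, 0.0896 for the pileup percentile, -2.33 bp upstream and -8 bp downstream, and limma called 0 regions. Peak lists hold only what passed the caller's threshold, so regions of low coverage enter with few tags and no depth beneath the threshold can be seen.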
